A study of Homo sapiens with 96 samples.

Results

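The interferon-stimulated genes described here are a list of 44 genes, read in every library of 5 count tables from K562 cells, out of up to 15910 genes tested in a table. K562, an established line, came from chronic myeloid leukaemia and has erythroid features. All 44 were in every table, 31 of them had enough counts to be tested in at least 1 table, and 16 were tested in all 5. The other 13 were OAS1, OAS2, OASL, IFIT5, MX1, IFI44, IFI44L, XAF1, HERC5, HERC6, TRIM22, EPSTI1 and GBP1.

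The 96 libraries form 32 groups of 3. Cells of the BCOR and of the KDM2B table carry a degron (mAID) on the named protein by the names of their tables, and received 5PhIAA, called the ligand below, for 2, 8, 24 or 72 h or were left untreated. The construct table, whose name speaks of KDM2B mutants, holds cell lines named LF, SF, dLRRS, dCxxC and EV, each with ligand or with DMSO. The inhibitor table, also named for KDM2B-mAID cells, holds cells given ligand, GSK343 (an inhibitor of the histone methyltransferase EZH2), both, or DMSO. The J2_7 table holds the same 4 treatments in KDM2B-mAID_J2_7 cells, called J2_7, and in KDM2B-mAID cells, called mAID, so that both lines carry the KDM2B degron by name. The name of that table speaks of wild-type cells and of cells that lack both JARID2 and AEBP2, and no label states which line is which. The labels spell out none of the construct names, state no dose, give no time outside the BCOR and KDM2B tables, and do not say whether a line is 1 clone. They do not say that libraries of a group came from separate cultures either, so a p-value here measures the spread between these libraries. Neither time course had a vehicle group.

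Interferons bind receptors at the cell surface, whose kinases JAK1 and TYK2 phosphorylate STAT proteins. A complex that contains STAT2 and IRF9 binds the interferon-stimulated response element. The genes that answer include sensors of viral RNA, enzymes that degrade or modify RNA and proteins, membrane proteins that hinder viral entry, and regulators of the pathway itself. KDM2B recruits PRC1.1, a Polycomb complex that contains BCOR and ubiquitinates histone H2A, to CpG islands. EZH2, JARID2 and AEBP2 belong to PRC2, the Polycomb complex that methylates histone H3 at lysine 27.

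The promoters of 4 members whose RNA differed between lines are shown because the response element is the DNA sequence that the complex with STAT2 and IRF9 binds. Each is the RefSeq window from 250 bases before to 50 after the start site on GRCh38.p14, 5′ to 3′ on the gene's strand, with capitals for matches to GAAANNGAA on either strand.
OAS3 (chr12:112938224-112938523, plus strand): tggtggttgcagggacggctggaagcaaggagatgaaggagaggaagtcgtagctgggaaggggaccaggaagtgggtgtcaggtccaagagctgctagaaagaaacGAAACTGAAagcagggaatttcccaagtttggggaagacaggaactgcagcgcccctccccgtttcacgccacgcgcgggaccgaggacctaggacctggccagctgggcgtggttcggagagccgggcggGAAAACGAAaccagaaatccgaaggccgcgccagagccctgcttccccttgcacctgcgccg
IFIH1 (chr2:162318635-162318934, minus strand): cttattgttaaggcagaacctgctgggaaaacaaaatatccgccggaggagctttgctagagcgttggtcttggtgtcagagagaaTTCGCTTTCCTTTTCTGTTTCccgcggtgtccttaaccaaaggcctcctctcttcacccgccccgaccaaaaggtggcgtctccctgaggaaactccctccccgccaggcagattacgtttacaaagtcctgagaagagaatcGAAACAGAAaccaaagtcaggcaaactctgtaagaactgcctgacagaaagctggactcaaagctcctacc
ISG15 (chr1:1013247-1013546, plus strand): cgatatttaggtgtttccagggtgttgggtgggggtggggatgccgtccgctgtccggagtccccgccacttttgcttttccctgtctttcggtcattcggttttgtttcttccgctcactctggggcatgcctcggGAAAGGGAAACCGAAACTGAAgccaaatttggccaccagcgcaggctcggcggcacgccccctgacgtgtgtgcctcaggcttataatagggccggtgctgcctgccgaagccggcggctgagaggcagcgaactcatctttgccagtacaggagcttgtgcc
PARP14 (chr3:122680589-122680888, plus strand): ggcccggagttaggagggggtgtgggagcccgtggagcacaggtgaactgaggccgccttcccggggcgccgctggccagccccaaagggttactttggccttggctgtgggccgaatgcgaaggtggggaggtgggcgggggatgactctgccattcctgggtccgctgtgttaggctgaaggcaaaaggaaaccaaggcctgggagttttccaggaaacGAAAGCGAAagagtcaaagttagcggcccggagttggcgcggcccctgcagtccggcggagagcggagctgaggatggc
OAS3 held 2 matches, IFIH1 4, ISG15 3 and PARP14 1, and some matches of IFIH1 and of ISG15 overlap. Shorter windows around 1 match are shown for 4 further members with calls in other comparisons.
IFITM1 (chr11:313992-314017, plus strand): aacagcagGAAATAGAAacttaagag
IFITM3 (chr11:320895-320920, minus strand): aatgccagGAAAAGGAAactgttgag
IFIT1 (chr10:89392500-89392525, plus strand): gctttagtTTCACTTTCccctttcgg
SAMD9 (chr7:93118098-93118123, minus strand): tgagaaatGAAACTGAAaccaaacct
Of the 44 genes, USP18, IFITM2, IRF7 and GBP2 were among those without a promoter in the RefSeq table, and 34 had at least 1. The 9-base core GAAANNGAA stood in 30 of their 45 promoters (66.7%), against 2847 of all 35116 promoters of the same length (8.11%). At least 1 match was found for 25 of the 34 genes, and none in the windows of RIGI, OAS1, IFI35, STAT2, IRF1, IRF9, XAF1, HERC6 and SAMD9L. TTCNNNGAA, the core of the gamma-activated site, another element of interferon-responsive promoters, stood in 11 of the 45 promoters (24.4%), against 2689 of all (7.66%). A match is a run of letters and does not show that a factor binds there.

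Library totals ran from 782663 to 24545679 counts over the 5 tables, lowest in J2_7 GSK343 library 1. RNA of the genes under study was read first, although a degron acts on the protein. KDM2B RNA averaged 2390, 898, 2930 and 3620 CPM (counts scaled to library size) in LF, SF, dLRRS and dCxxC cells with DMSO, against 82.1 in EV cells. AEBP2 RNA stood at 1.68 CPM in J2_7 cells and 17.1 in mAID cells with DMSO, and JARID2 RNA at 90.1 and 115. Summed CPM of 10 erythroid markers was 735 to 793 in LF, 713 to 745 in SF, 965 to 1090 in dLRRS and 842 to 874 in dCxxC cells, against 1370 to 1770 in EV cells, all with DMSO. Those of 8 myeloid markers were 42.7 to 52.2, 41.4 to 43.1, 37.8 to 40 and 133 to 139, against 32.1 to 35.8. The J2_7 lines stood apart the other way, with 18300 to 22800 erythroid CPM in J2_7 and 10600 to 12300 in mAID cells, and 15.1 to 16.9 and 53.4 to 64.9 myeloid CPM. Summed CPM of 7 lymphoid markers was 1.99 to 11.9 outside the J2_7 table and 17.4 to 50 in it, and MS4A1, which defines B cells, had no count in any library. Sums of 4 plasmacytoid dendritic markers were 28 to 72.3 CPM, where TCF4, also expressed in other cell types, was the only one with enough counts to be tested and LILRA4 had no count in any library. Of 14 interferon genes, 5 had a count anywhere, with 7 counts in all 96 libraries, and none could be tested.

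Most members were weakly expressed in K562 cells without ligand. Per kb of merged exons, BST2 (tetherin, which holds budding virus at the cell surface), IFITM1 and IFITM2 (membrane proteins that hinder viral entry) had the 3 highest levels in the control groups of all 4 tables of whole-gene counts. BST2 averaged 66.3 CPM per kb in untreated BCOR cells, 64.6 in untreated KDM2B cells, 70.4 in EV cells with DMSO and 96.9 in inhibitor-table cells with DMSO. IFITM1 averaged 63.1, 43.1, 50.9 and 68.2 CPM per kb in the same groups, and IFITM2 11.7, 26, 16.1 and 42.9. In EV cells DTX3L, ISG15, PARP14 and STAT2 followed at 8.68, 7.22, 7.10 and 4.50 CPM per kb, while IFIH1, USP18 and OAS3 stood at 1.16, 0.858 and 0.624. OAS1, OAS2, IFI44, IFI44L and HERC5 had no count in EV cells with DMSO. Over all 96 libraries IFI44L had 5 counts, IFI44 11, HERC5 16, OAS2 21 and OAS1 25, so a change in them was not detectable at this depth. Levels of the J2_7 table are not set between genes, since the labels name a 3′ end protocol as an alternative there.

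**Figure D1:**
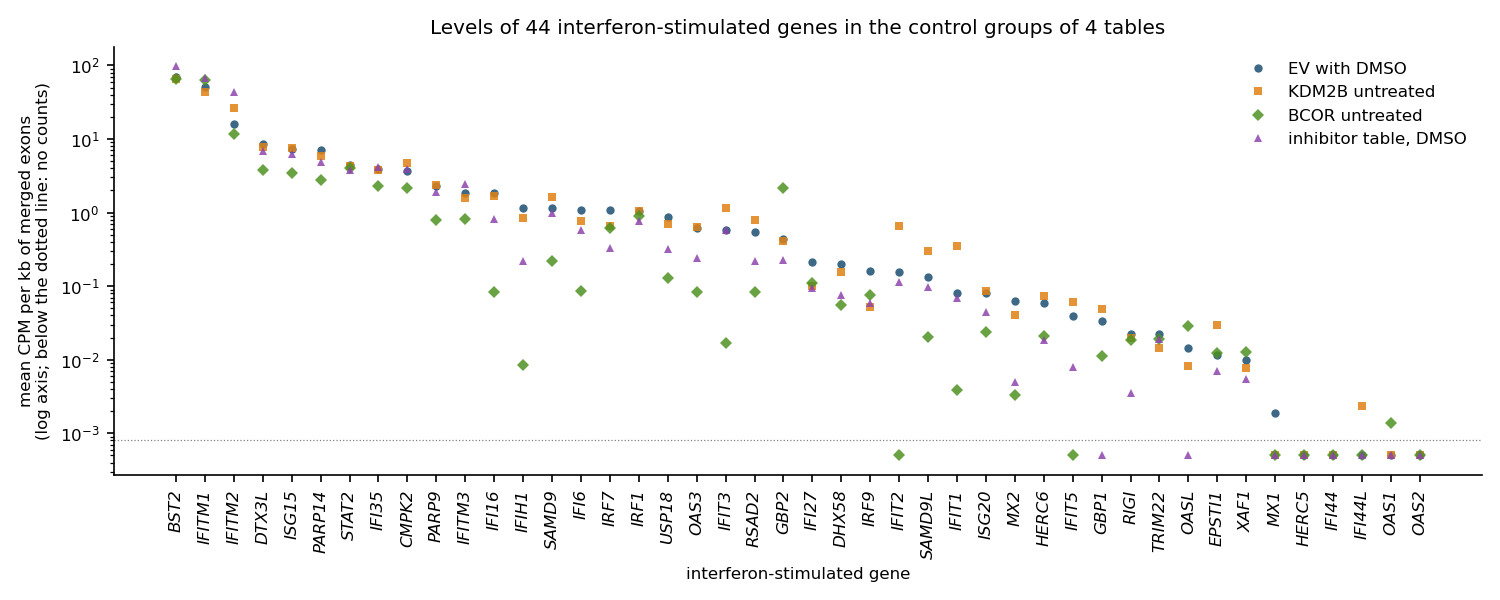
Mean level of the 44 genes (CPM per kb of merged exons, log axis) in the control groups of 4 tables, ordered by EV cells with DMSO, with groups without counts below the dotted line. BST2, IFITM1 and IFITM2 lie highest in all 4 groups, and BST2 stands at 70.4 CPM per kb in EV cells.

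A gene is called below with an adjusted p under 0.05, by edgeR's quasi-likelihood test (Benjamini-Hochberg, over every gene tested in that comparison), and an absolute log2 fold change above 0.585. Of the 31 tested members, 30 were called in at least 1 of 35 comparisons, and RIGI, a sensor of viral RNA, in none of these. They gave 85 calls, 26 higher and 59 lower. USP18, the protease that removes ISG15 from proteins and dampens receptor signalling, was called most often: higher in 6 comparisons and lower in 4. OAS3, which makes the activator of RNase L, was called higher once and lower 4 times, and IRF7 and GBP2 lower 4 times each. The comparisons of a table share their control libraries, so calls that recur within a table are not independent. The median log2 fold change of all tested genes lay between -0.02 and 0.02 in every comparison.

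**Figure D2:**
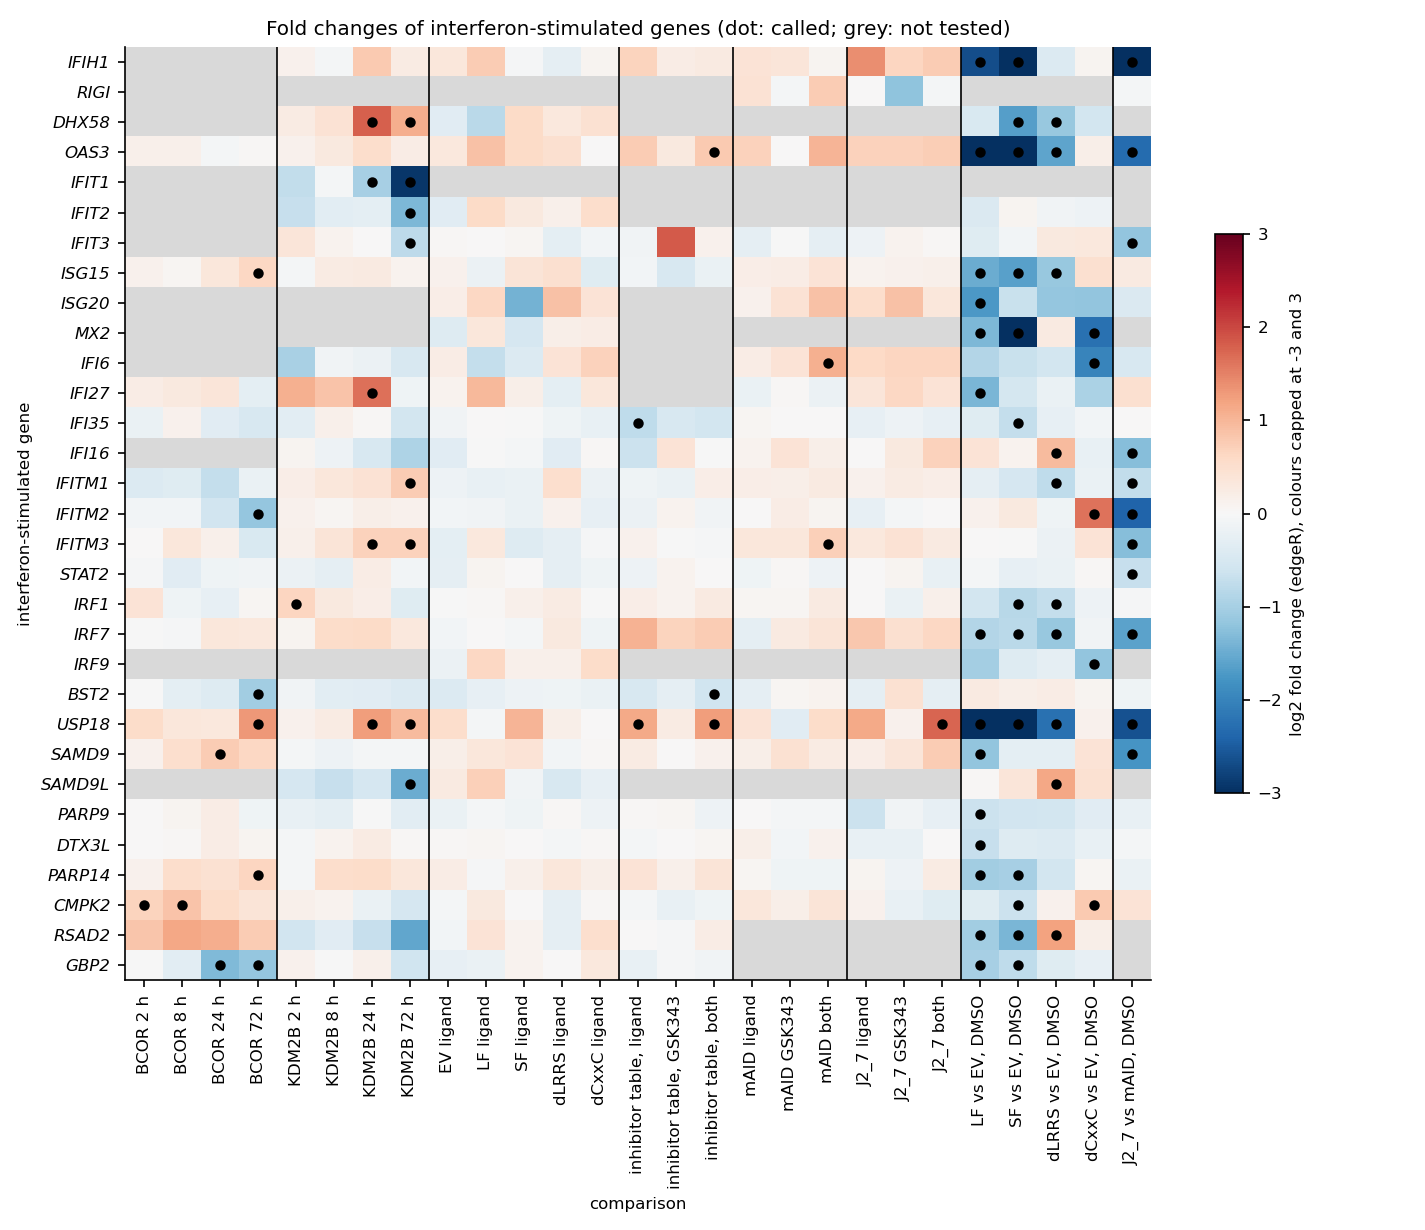
Log2 fold changes of the 31 tested genes (rows, in the order of the list) in 27 comparisons (columns), from edgeR with 3 libraries a group; dots mark calls and grey marks genes not tested in a table. Dots gather in the columns that set cell lines against each other, with 14 calls for LF against EV and 11 for J2_7 against mAID, and USP18 is called higher after ligand in several columns.

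LF cells had lower RNA of 14 of 29 tested members than EV cells, both with DMSO, and no member was called higher. Over all genes 15.3% were called in this comparison and 8.36% were lower. SF cells had 13 of 29 lower and none higher, where 13.6% of all genes were called and 9.47% were lower. The members' median log2 fold change was -0.69 in LF and -0.64 in SF cells, and over all genes -0.02 in both. The calls in both lines included sensors, OAS3, the ISG15 system and transcription factors. The erythroid and myeloid sums given above differed between the same lines, and their part in these differences was not tested; whether fewer cells expressed a gene or each cell had less of its RNA cannot be told apart in bulk RNA.

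Among sensors, IFIH1 (MDA5, which detects long double-stranded RNA, at chromosome 2 from 162267074 to 162318684) had 1.22, 0.879 and 0.777 CPM in LF and 0.816, 0.282 and 0.173 in SF cells, against 5.55, 6.11 and 6.53 in EV cells. All 6 libraries of LF and SF lay below every EV library. The log2 fold changes were -2.66 (SE 0.24, adjusted p = 3.88e-12) in LF and -3.85 (SE 0.27, adjusted p = 1.81e-15) in SF. DHX58 (LGP2, a regulator of such sensors) was lower in SF cells, at 0.235 ± 0.0559 CPM against 0.775 ± 0.185 in EV (SD, n = 3 each, log2 fold change -1.65, adjusted p = 0.0073 by edgeR), a gene near the filter on low counts.

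OAS3 (chromosome 12, 112938051 to 112976460) was the member with the smallest adjusted p in both lines. It had 0.812, 1.22 and 0.777 CPM in LF, 0.942, 1.07 and 1.04 in SF, and 11, 11.9 and 10.9 in EV cells with DMSO. The groups were far apart, at 11.8-fold lower in LF (log2 fold change -3.57, SE 0.18, adjusted p = 8.52e-20 by edgeR) and 11-fold lower in SF (-3.46, SE 0.17, adjusted p = 1.37e-20). ISG20, an exonuclease that degrades single-stranded RNA, was called in LF (log2 fold change -1.72, adjusted p = 0.0341 by edgeR), from 7 counts in LF against 33 in EV.

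In the ISG15 system, ISG15 itself (a ubiquitin-like protein attached to other proteins) and its protease USP18 were both lower. USP18 (chromosome 22, 18150118 to 18177397) had 0.244, 0.338 and 0.388 CPM in LF and 0.126, 0.0563 and 0.173 in SF cells, against 3.89, 3.25 and 3.40 in EV cells. Its log2 fold changes were -3.40 (SE 0.33, adjusted p = 1.65e-11 by edgeR) in LF and -4.80 (SE 0.37, adjusted p = 3.64e-14) in SF, where the 3 libraries held 6 counts. ISG15 had 2.76, 2.03 and 1.94 CPM in LF and 2.26, 1.97 and 1.73 in SF cells, against 7.33, 5.33 and 6.11 in EV cells (log2 fold changes -1.48 and -1.64, SE 0.18 each). For both genes the highest LF or SF library lay below the lowest EV library.

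MX2, a GTPase that blocks nuclear import of viruses, was at 0.406, 0.0676 and 0.621 CPM in LF and 0, 0.282 and 0 in SF cells, against 0.744, 0.910 and 1.11 in EV cells. It was called in both lines (log2 fold changes -1.35 and -3.12, adjusted p = 0.036 and 0.00013 by edgeR). Among transcription factors, IRF7 had 1.62, 1.42 and 1.40 CPM in LF and 1.32, 1.69 and 1.62 in SF cells, against 2.92, 1.78 and 3.82 in EV cells. The EV libraries of IRF7 were themselves spread, and its calls in both lines ended without EV DMSO library 3 (log2 fold changes -0.62 and -0.55). IRF1, a factor that acts without the STAT complex as well, was called in SF at 7.28 ± 0.585 CPM against 12.9 ± 1.41 in EV cells (log2 fold change -0.84). STAT2 was called in none of the 4 lines.

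PARP14, PARP9 and DTX3L lie together on chromosome 3 and encode ADP-ribosyltransferases and the ubiquitin ligase that partners PARP9. PARP14 had 32.6, 39.9 and 32.5 CPM in LF and 37, 35.4 and 36.9 in SF cells, against 73.3, 72.4 and 73.2 in EV cells (log2 fold changes -1.05 and -1.0). DTX3L was at 31 ± 0.420 CPM in LF cells against 50 ± 1.76 in EV cells (-0.69), and PARP9 at 13.2 ± 1.77 against 20.7 ± 1.15 (-0.64). PARP9 and DTX3L overlap on opposite strands, and the strand setting of the counting is not given in the sources used here, so their reads cannot be told apart with certainty.

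The remaining calls in LF were SAMD9, IFI27, RSAD2 and GBP2. SAMD9, an antiviral and growth-restraining protein, stood at 3.47 ± 0.696 CPM in LF against 7.89 ± 1.65 in EV cells (log2 fold change -1.19), and was not called in SF at 6.35 CPM. RSAD2 (viperin, which makes a chain-terminating nucleotide) was lower in LF and in SF (-1.04 and -1.36), and CMPK2, the nucleotide kinase beside it, was lower in SF (-0.64). RSAD2 and CMPK2 overlap on opposite strands too. GBP2, a guanylate-binding protein, had 1.22, 1.42 and 2.10 CPM in LF and 2.01, 1.46 and 2.14 in SF cells, against 2.98, 3.51 and 2.92 in EV cells (log2 fold changes -1.0 and -0.76). IFI27 was called in LF (-1.37) and IFI35 in SF (-0.71). Of the most abundant members, BST2 stood at 94.0 CPM in LF and 87.7 in SF against 77.6 in EV cells, and IFITM1 at 70.4 and 59.5 against 84.7, with no call for either.

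USP18 and ISG20 reached the cutoff of the filter on low counts in no LF or SF library, and MX2 in none of SF. With DMSO, MX2 and IFI27 reached it in no LF library either. DHX58 reached it in EV and dCxxC libraries alone. For all of these a lower value than in EV cells is partly built into the filter. They are no support for the counts of called members in LF and SF. The calls of OAS3, USP18, IFIH1, ISG15, PARP14, SAMD9, GBP2 and DTX3L in LF held under all alternatives run, and so did those of USP18, IFIH1, OAS3, MX2, ISG15, RSAD2, PARP14 and IRF1 in SF. In LF, ISG20, IFI27 and MX2 were lost under 6, 5 and 6 alternatives, among them DESeq2. DESeq2 called 12 members in LF, of which 11 were shared, and 13 in SF. PARP9 in LF was lost without EV DMSO library 2 (log2 fold change -0.58) or LF DMSO library 3 (-0.55). In SF, GBP2 was lost without SF DMSO library 2 (-0.59) and IFI35 without SF DMSO library 1 (-0.57).

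The dLRRS line gave a mixed pattern, with 7 of 29 members lower and 3 higher than EV with DMSO (11.9% of all genes called, 7.13% lower, members' median -0.29). OAS3 had 3.71, 3.96 and 3.71 CPM in dLRRS cells, between the LF and SF values and the EV values given above (log2 fold change -1.58, SE 0.13, adjusted p = 5.35e-13 by edgeR). USP18 had 0.609, 0.538 and 1.02 CPM (-2.23), ISG15 2.92, 2.82 and 2.69 (-1.14) and IRF7 1.58, 0.672 and 1.40 (-1.14). IRF1 (-0.72), DHX58 (-1.13, adjusted p = 0.0473 by edgeR) and IFITM1 (-0.76) were also lower. DHX58 lost its call under 27 of 35 alternatives and IFITM1 under 4 of 37, among them without EV DMSO library 1 (-0.51) or dLRRS DMSO library 3 (-0.69). Higher in dLRRS were RSAD2 at 6.51, 8.54 and 6.08 CPM, against 2.69, 2.95 and 3.54 in EV cells (1.2), SAMD9L, a paralog of SAMD9, at 2.44 ± 0.289 against 1.08 ± 0.159 (1.17), and IFI16, a sensor of DNA, at 18.9 ± 0.948 against 9.74 ± 0.263 (0.95). IFIH1 was not called in dLRRS, at 4.56, 4.91 and 4.14 CPM.

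The dCxxC line had 2 members higher and 3 lower than EV with DMSO (19.2% of all genes called, 8.93% lower, members' median -0.08). IFITM2 (chromosome 11, 303655 to 309397) had 77.6, 84.5 and 79.1 CPM in dCxxC cells, against 27.9, 24.9 and 24.7 in EV cells, a 3.11-fold difference with no overlap (log2 fold change 1.64, SE 0.09, adjusted p = 3.79e-19 by edgeR). CMPK2 had 26.8, 28.9 and 27.9 CPM in dCxxC cells, against 17, 14.9 and 16.8 in EV cells (0.78, adjusted p = 3.6e-10 by edgeR). IFITM1, beside IFITM2 and near-identical to it in parts, was not called, at 73.2 CPM against 84.7, though reads shared between such paralogs may be split by the counting. MX2 had 0, 0.372 and 0.217 CPM (log2 fold change -2.23), IFI6, an inhibitor of apoptosis, 0.252 against 1.02 (-1.97) and IRF9 0.467 against 1.05 (-1.19). MX2 and IFI6 reached the filter's cutoff in no dCxxC library, and IRF9 in none with DMSO, so their lower values are partly built into the filter. The call of IRF9 ended without EV DMSO library 2 (-0.89) or dCxxC DMSO library 1 (-1.15) or 2 (-1.06). USP18 and OAS3 were not called in this line, at 3.84 and 12.7 CPM, against 3.51 and 11.3 in EV cells.

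**Figure D3:**
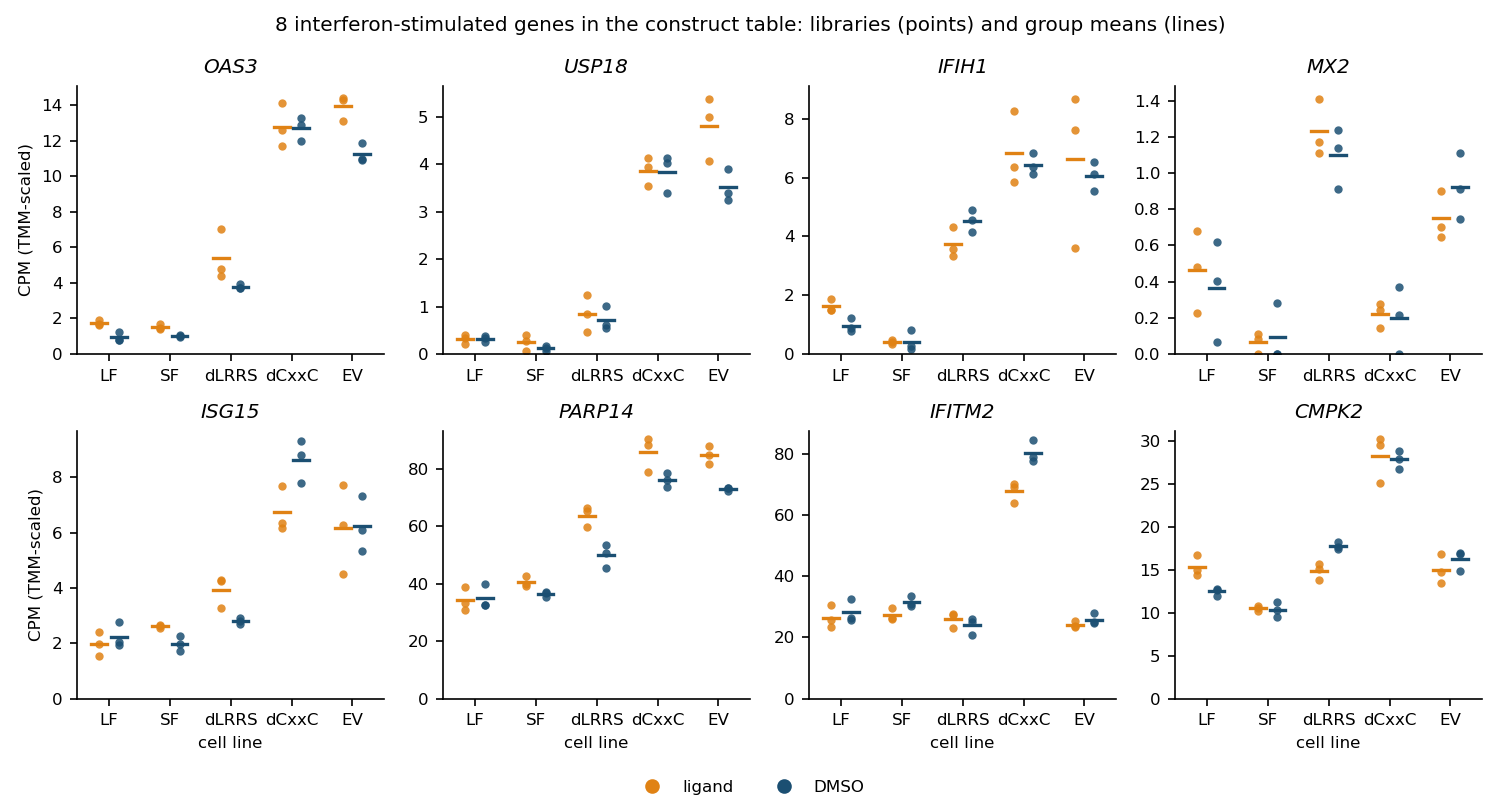
CPM of 8 members in the construct table, with points for libraries and lines for group means, ligand (orange) left of DMSO (blue) in each cell line. OAS3, USP18, IFIH1, ISG15 and PARP14 lie lower in LF and SF than in EV under both treatments, and IFITM2 stands near 80.4 CPM in dCxxC with DMSO against 25.9 in EV.

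The ligand itself called none of the 29 members in any construct line. The counts at an unadjusted p under 0.05 were 6 in LF, 5 in SF, 9 in dLRRS, 5 in dCxxC and 6 in EV cells, and DESeq2 called 0 in each. Over all genes the ligand called 0.00629% in LF, 0.0189% in SF, 3.41% in dLRRS, 0.0189% in dCxxC and 3.27% in EV cells. In dLRRS, 2 members were called without dLRRS ligand library 1. Differences of the ligand effect from that in EV called no member either, at 5 (LF), 2 (SF), 2 (dLRRS) and 3 (dCxxC) with an unadjusted p under 0.05 and 0 by DESeq2. Of all genes 0.748%, 0.729%, 0.0377% and 1.51% were called there. Some members too low to test had more reads in LF cells with ligand than with DMSO. MX1 had 21 against 2, HERC6 19 against 1 and XAF1 13 against 2. A single LF ligand library held 20 of the 21 for MX1.

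The lines were also compared with EV in their ligand libraries, in comparisons added after the DMSO results were seen. These libraries share the fit of the whole table with the DMSO libraries, with its filter, scaling and estimate of spread. The comparisons are thus no independent repeat. LF had 10 of 29 members lower and 2 higher (19.1% of all genes called, 10.9% lower), SF 12 lower (15.2%, 11.4% lower), dLRRS 5 lower and 2 higher (7.47%, 5.02% lower) and dCxxC 1 lower and 4 higher (11.3%, 5.37% lower). OAS3 stood at 1.76 ± 0.146, 1.53 ± 0.143 and 5.41 ± 1.43 CPM in LF, SF and dLRRS cells, against 13.9 ± 0.734 in EV cells (log2 fold changes -3.01, -3.22 and -1.41). USP18 (-3.98, -4.33 and -2.59), IFIH1 (-2.23, -4.23 and -1.02) and ISG15 (-1.78, -1.38 and -0.78) were lower in the same 3 lines. With ligand, USP18 reached the filter's cutoff in no LF or SF library, and IFIH1, ISG20 and MX2 in no SF library. IFI6, called lower in LF and dCxxC, reached it in no ligand library of either. Their lower values there are partly built into the filter and are no support for these counts. IFIH1 overlapped between dLRRS and EV, where EV ligand library 1 had 3.60 CPM. That library held only 2346542 counts, the lowest total of its table. It is in the EV group of every line comparison with ligand and of the ligand effect in EV cells. MX2 had 3 counts in SF against 24 in EV cells, a ratio 10.7-fold lower with a 0.95 counting interval of 3.24 to 55.3. IFITM2 was again higher in dCxxC cells, at 67.8 ± 3.26 CPM against 24.2 ± 1.06 (1.48), as was CMPK2 (0.87). RSAD2 was higher in dLRRS and dCxxC (1.01 and 0.76), IFI16 in dLRRS and LF (0.95 and 0.71), and IFITM3 in LF and dCxxC (0.64 and 0.67). Other calls with DMSO were not repeated with ligand. In LF these were RSAD2 (-0.53), PARP9 (-0.52), IFI27 (-0.51), ISG20 (-1.30) and MX2 (-0.61), and in SF GBP2 (-0.42), CMPK2 (-0.57) and DHX58 (-0.73). In dLRRS they were IRF1 (-0.45), SAMD9L (0.43), IFITM1 (-0.09) and DHX58 (-0.47), and in dCxxC IRF9 (-0.47) and MX2 (-1.62).

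Other genes of the pathway were read from 3 further lists. Of 15 tested receptors and signal transducers, IFNAR2, a chain of the type I receptor, was lower in LF (3.27 CPM, and 5.85 CPM in EV, log2 fold change -0.83, all with DMSO), IFNGR2 in SF (-0.76) and SOCS3, an inhibitor of JAK kinases, in dLRRS (-1.02). In dCxxC, SOCS1 (1.11), IFNGR1 (0.91) and SOCS3 (0.59) were higher and IL10RB lower (-1.01). IFNGR1 was also higher in dLRRS (0.62). Of 18 tested sensing genes, 2 were lower in LF, 1 in SF and none in dLRRS, where AIM2 was higher (0.86), and dCxxC had STING1 higher (0.81) with AIM2 (-2.39) and TRIM14 lower. Of 11 tested antigen presentation genes, 5 were lower in LF, led by TAP1, a peptide transporter, at 1.24 against 4.96 CPM (-1.97), and 3 in SF, where TAP1 stood at 1.2 (-2.03). Of these 11, dLRRS had TAP1 and PSMB10 lower (-1.05 and -0.97) and B2M higher (0.61), whereas dCxxC had 5 higher, with HLA-C at 7.84 against 1.46 CPM (2.43) and TAP1 at 10.3 (1.06). HLA genes share sequence, so their counts are uncertain. Of 9 tested erythroid markers, 6 were lower in LF, 7 in SF and 5 in each of dLRRS and dCxxC. Of 4 tested myeloid markers, 2 were higher in LF, 1 in dLRRS and 3 in dCxxC, and SF had 1 higher and 1 lower.

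J2_7 cells had lower RNA of 11 of 23 tested members than mAID cells, both with DMSO, and no member higher. Of all genes 14.2% were called and 10.7% were lower, and the members' median log2 fold change was -0.49, against 0.01 over all genes. DESeq2 called 11 as well. Of 3 tested myeloid markers all were lower in J2_7, with LYZ at 4.50 against 28.1 CPM, and 5 of 10 erythroid markers were higher; their part in the members' differences was not tested.

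The IFITM genes, which lie side by side on chromosome 11, carried the most counts. IFITM2 had 45.9, 45.4 and 48.9 CPM in J2_7 cells, against 243, 242 and 258 in mAID cells, 5.30-fold lower with no overlap (log2 fold change -2.41, SE 0.10, adjusted p = 8.21e-19 by edgeR). IFITM3 had 4.93, 4.34 and 4.92 CPM in J2_7, against 11.5, 12 and 11.2 in mAID cells (-1.28, adjusted p = 2.26e-09 by edgeR). IFITM1 averaged 665 ± 43.4 CPM in J2_7 and 1100 ± 61.9 in mAID cells (-0.73, adjusted p = 2.29e-08 by edgeR, SD, n = 3 each).

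Among sensors, IFIH1 had 0, 0 and 0.290 CPM in J2_7 cells, against 2.64, 3.88 and 2.06 in mAID cells. With 3 counts in J2_7 and 70 in mAID, the ratio was 31-fold lower with a 0.95 counting interval of 10.2 to 154 (adjusted p = 2.87e-07 by edgeR). IFI16 averaged 1.37 ± 0.484 CPM in J2_7 and 3.30 ± 0.532 in mAID cells (log2 fold change -1.28). USP18 had 0.411, 0.189 and 0.193 CPM in J2_7, against 2.05, 1.52 and 1.54 in mAID cells (-2.61, adjusted p = 3.9e-05 by edgeR), and OAS3 0.411, 0.0944 and 0.0965, against 1.47, 0.845 and 0.925 (-2.32). IRF7 had 0.329, 0.566 and 0.386 CPM in J2_7, against 1.37, 1.01 and 1.44 in mAID cells (-1.60). A second, numbered entry of IRF7 held 50% of its counts and is not in these CPM, and its call held with that entry added (-1.62). SAMD9 (-1.76), STAT2 (-0.70) and IFIT3, an RNA-binding protein of the IFIT family (-1.19), were also lower. IFIH1, OAS3 and SAMD9 passed the filter on low counts through mAID groups alone, so they had to be higher there and are no support for the count of 11. USP18 and IRF7 reached the filter's cutoff of 1.094 CPM in no J2_7 library with DMSO. Their lower values there are partly built into the filter and are no support for that count either. The calls of IRF7 and STAT2 were not repeated with ligand, nor that of OAS3 with GSK343 (log2 fold changes -0.52, -0.58 and -1.64). ISG15, called in LF, SF and dLRRS, was not called here, at 36.3 ± 3.04 CPM in J2_7 and 30.1 ± 3.88 in mAID cells. IFIT1 and MX2 had no count in any of the 12 J2_7 libraries.

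The other treatments gave 3 more comparisons of the 2 lines, added after the DMSO result was seen. With ligand 10 of 23 members were lower in J2_7 (14.2% of all genes called, 10.2% lower). With GSK343, 11 were lower and IFI27 was higher (13.7%, 9.78% lower). With both, 13 were lower and IFI27 was higher (13.1%, 9.38% lower), where DESeq2 called 9. IFIH1 and SAMD9 were among the lower calls in each, and OAS3 with ligand and with both. These genes passed the filter through mAID groups alone and are no support for the counts. IRF7 was called lower with GSK343 and with both, where no J2_7 library reached the cutoff, and is no support there either. The count of 12 with GSK343 fell to 7 without J2_7 GSK343 library 2. Library 1 of that group held only 782663 counts. IFITM2 was lower in each, with log2 fold changes of -2.67, -2.69 and -2.48, and so were IFITM3 (-1.30, -1.19 and -1.74) and IFIT3 (-1.07, -1.07 and -0.89). RIGI was called lower with GSK343 and with both (-1.21 and -0.88), and its libraries overlapped with both. Each of these RIGI calls was lost under 5 of 32 alternatives, and that of IFI27 under 7 of 30 with GSK343 and 21 of 31 with both. IFI27 reached the filter's cutoff in no mAID library with GSK343 or with both, so a higher value in J2_7 is partly built into the filter. Of 17 tested sensing genes, PML (-0.89), STING1 (-0.72) and TRIM21 (-0.65) were lower in J2_7 with DMSO. Of 6 tested antigen presentation genes TAPBP (-0.86) and B2M (-0.75) were lower, and of 15 receptors and transducers SOCS3 was higher (0.70).

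**Figure D4:**
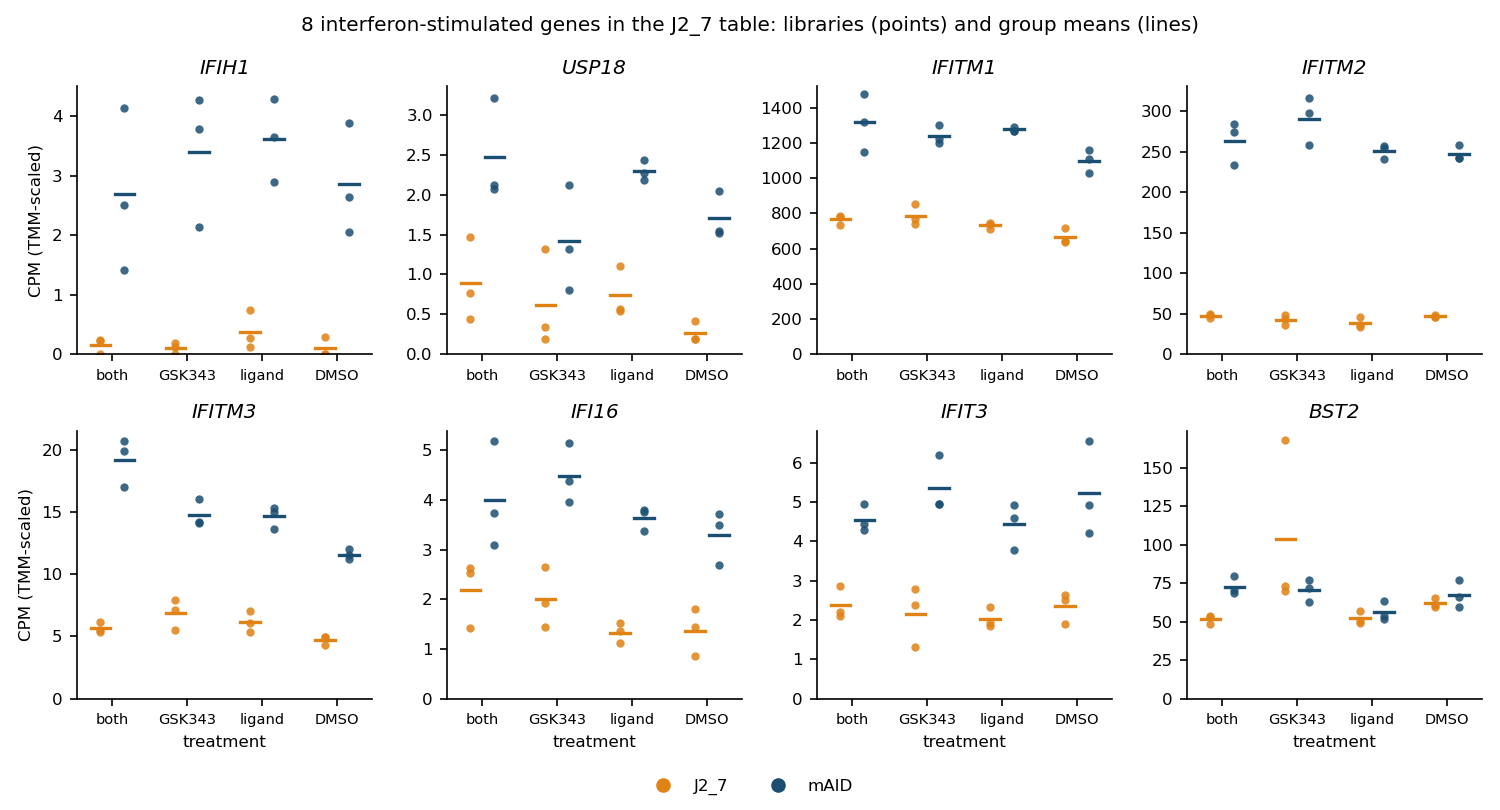
CPM of 8 members in the J2_7 table, with points for libraries and lines for group means, J2_7 (orange) left of mAID (blue) under each treatment. IFITM2 lies near 46.8 CPM in J2_7 and 248 in mAID cells with DMSO, and 38.6 against 251 with ligand, while BST2 reaches 168 CPM in 1 J2_7 GSK343 library, the shallowest.

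In the KDM2B time course the members split, with USP18, IFITM1 and IFITM3 rising and IFIT1, IFIT2 and IFIT3 falling late. Of 27 tested members, 1 was called at 2 h (1.76% of all genes), 0 at 8 h (4.24%), 5 at 24 h (12.5%) and 8 at 72 h (10.5%). The members' median log2 fold changes were 0.08, 0.10, 0.17 and -0.14. At 8 h, 5 had an unadjusted p under 0.05 and DESeq2 called 0. IRF1 was the member called at 2 h, at 22.2, 18.3 and 19.2 CPM, against 12, 11.3 and 14.8 in untreated cells (0.65, adjusted p = 0.0048 by edgeR). It averaged 15.6, 14.4 and 9.78 CPM at 8, 24 and 72 h.

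USP18 averaged 2.87 ± 0.197 CPM untreated, and 3.16 ± 0.283, 3.41 ± 0.611, 6.81 ± 1.65 and 5.64 ± 0.971 at 2, 8, 24 and 72 h (SD, n = 3 each). At 24 h its libraries had 8.34, 5.07 and 7.02 CPM and at 72 h 6.28, 4.52 and 6.12, all above the untreated 3.04, 2.65 and 2.92 (log2 fold changes 1.26 and 0.96, adjusted p = 8.99e-05 and 0.00205 by edgeR). DHX58 rose to 2.38, 2.53 and 1.44 CPM at 24 h, against 0.651, 0.497 and 0.648 untreated (1.80, adjusted p = 0.000665), and stood at 1.30 at 72 h (1.10). No untreated library of DHX58 or IFI27 reached the filter's cutoff of 0.75 CPM, so both entered the test through ligand groups, where they had to be higher. Their calls are no support for the counts of called members at 24 and 72 h. DHX58 had averaged 0.733 and 0.764 CPM at 2 and 8 h. IFITM3 had 7.28, 6.60 and 7.87 CPM at 24 h and 7.14, 5.64 and 8.95 at 72 h, against 3.61, 5.47 and 4.45 untreated (0.69 and 0.68), after 4.94 and 5.98 on average at 2 and 8 h. IFITM1 averaged 71.9 CPM untreated, then 81.5, 91.6, 96.9 and 122, and was called at 72 h (0.76, adjusted p = 0.0462). IFI27 was called at 24 h, at 1.35 ± 0.267 against 0.412 ± 0.373 CPM (1.66), and stood at 0.397 at 72 h.

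The IFIT genes, neighbours on chromosome 10 whose proteins bind viral RNA, had their lowest levels at 72 h. IFIT1 had 0.344, 0.131 and 0.153 CPM at 72 h, against 0.940, 2.07 and 1.78 untreated, after 0.914, 1.54 and 0.785 on average at 2, 8 and 24 h (log2 fold changes -1.0 at 24 h and -2.92 at 72 h, SE 0.48, adjusted p = 0.00016 by edgeR at 72 h). IFIT2 had 0.775, 1.44 and 1.07 CPM at 72 h, against 2.53, 2.57 and 3.48 untreated (-1.35), after 1.74, 2.32 and 2.31 on average. IFIT3 had 3.44, 3.41 and 3.52, against 6.43, 5.05 and 6.32 (-0.78), after 7.62, 6.45 and 6.03. No 72 h library of the 3 genes reached its lowest untreated library. IFIT1 reached the filter's cutoff of 0.75 CPM in no 72 h library, so a lower value there is partly built into the filter. Its call at 72 h is no support for the count of called members at that time. IFIT2 and IFIT3 overlap LIPA on the opposite strand. SAMD9L also fell, to 0.852 ± 0.123 CPM at 72 h against 2.37 ± 0.948 untreated (-1.48), after 1.70, 1.44 and 1.64. OAS3 and IFIH1 were not called at any time. OAS3 came nearest at 24 h, with 16.6 ± 2.38 CPM against 11.6 ± 2.27 untreated (0.52, adjusted p = 0.0212 by edgeR), under the fold threshold.

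The calls of USP18 at both times, of DHX58 at 24 h and of IFIT1, IFIT2 and IFIT3 at 72 h held under all alternatives run. SAMD9L at 72 h was lost without untreated library 1 (-1.18), and IFITM3 at 72 h without untreated library 1 (0.55) or 3 (0.68) or 72 h library 3 (0.5). At 24 h, IFITM3 was lost without untreated library 1 (0.55) or 24 h library 3 (0.63) and IFI27 without untreated library 2 (1.12) or 24 h library 3 (1.5). IFITM1 at 72 h was lost under 13, DHX58 at 72 h under 9 and IFIT1 at 24 h under 8. The count at 2 h fell to 0 without untreated library 2 or 2 h library 1, that at 8 h was 1 without untreated library 3 or 8 h library 3, and that at 24 h was 3 without untreated library 2. At 72 h it was 4 without untreated library 1 and 5 without untreated library 3 or 72 h library 3. Of 15 receptors and transducers SOCS3 rose at 8, 24 and 72 h (0.96, 1.2 and 1.59) and STAT3 at 24 h (0.61). Of 12 tested antigen presentation genes, 2, 4 and 3 rose at 8, 24 and 72 h, and HLA-C stood at 5.25 against 1.39 CPM at 72 h (1.89) and TAP1 at 13 against 8.07 (0.69). ERAP2 fell at 72 h (-1.0), and AIM2 (-1.66) of 18 sensing genes. Erythroid sums were 1040 to 1240 CPM at 72 h and 907 to 1090 untreated.

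In the BCOR time course, CMPK2 rose early and GBP2 and BST2 fell late. Of 19 tested, 1 was called at 2 h (0.836% of all genes), 1 at 8 h (2.71%), 2 at 24 h (4.2%) and, later, 6 at 72 h (7.12%). The members' medians were 0.02, 0.08, 0.23 and 0.03. CMPK2 had 15.6, 17.3 and 12.4 CPM at 2 h and 16.3, 18.1 and 16.1 at 8 h, against 10.4, 9.67 and 7.98 untreated (log2 fold changes 0.67 and 0.85, adjusted p = 0.0175 and 0.00116 by edgeR), and averaged 14.1 and 12.3 at 24 and 72 h, without a call. GBP2 averaged 15.8 CPM untreated, 15.7 at 2 h and 12.8 at 8 h, and had 5.50, 5.72 and 8.69 at 24 h and 6.52, 8.12 and 6.44 at 72 h, below the untreated 14.1, 16.4 and 17 (-1.32 and -1.17, adjusted p = 1.63e-05 and 7.63e-06). BST2 fell to 35.7, 34.2 and 36.6 CPM at 72 h, against 83.2, 77.8 and 57.9 untreated (-1.04, adjusted p = 3.14e-07), after 72.0, 59.6 and 55.7 on average at 2, 8 and 24 h.

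PARP14 averaged 28.3 CPM untreated and 31, 40.7, 39 and 44.4 at 2, 8, 24 and 72 h, and was called at 72 h (0.65, adjusted p = 4.29e-06 by edgeR). ISG15 had 4.48, 4.54 and 4.79 CPM at 72 h, against 3.15, 2.92 and 2.87 untreated (0.63), after 3.25, 3.24 and 3.69. USP18 had 1.15, 1.2 and 1.54 CPM at 72 h, against 0.789, 0.486 and 0.310 untreated (1.29, adjusted p = 0.0167), after 0.758, 0.659 and 0.591. IFITM2 had 7.54, 10.5 and 7.47 CPM at 72 h, against 18, 24.7 and 13.6 untreated (-1.16), after 18.3, 17.2 and 13. SAMD9 was called at 24 h alone, at 2.58 ± 0.432 against 1.49 ± 0.245 CPM (0.77), with 1.68, 2.09 and 2.31 CPM at 2, 8 and 72 h. IFIH1, IFIT2 and IFIT3 could not be tested here: untreated BCOR cells had 2, 0 and 4 counts of them in 3 libraries, and the same genes had 172, 109 and 228 in untreated KDM2B cells.

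The calls of CMPK2 at 8 h, of GBP2 at both times and of PARP14 and BST2 at 72 h held under all alternatives run. SAMD9 at 24 h was lost under 7 and CMPK2 at 2 h under 4. USP18, ISG15 and IFITM2 at 72 h were lost under 4, 3 and 3 of them, DESeq2 among those for USP18 and ISG15. Left-out libraries ended the call of USP18 without untreated library 2 (1.21) or 3 (1.05) or 72 h library 3 (1.13), of ISG15 without untreated library 2 (0.61) or 72 h library 3 (0.59), and of IFITM2 without untreated library 2 (-0.90) or 72 h library 1 (-1.09) or 3 (-1.07). The count at 72 h fell to 3 without untreated library 2 or 72 h library 3, that at 24 h to 1 without untreated library 3 or 24 h library 2, and that at 2 h to 0 without untreated library 3, 2 h library 1 or 2 h library 2. TAP1 rose at 8, 24 and 72 h (1.30, 1.21 and 1.67) and HLA-C at 72 h (1.24) among 10 tested antigen presentation genes, with PSMB10 lower at 72 h (-0.85). Of 15 receptors and transducers SOCS3 rose at 72 h (1.15), and of 17 sensing genes STING1 and TRIM14 fell at 72 h (-0.80 and -0.69). Erythroid sums were 701 to 825 CPM at 72 h and 651 to 946 untreated, and myeloid sums 122 to 142 and 162 to 224.

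**Figure D5:**
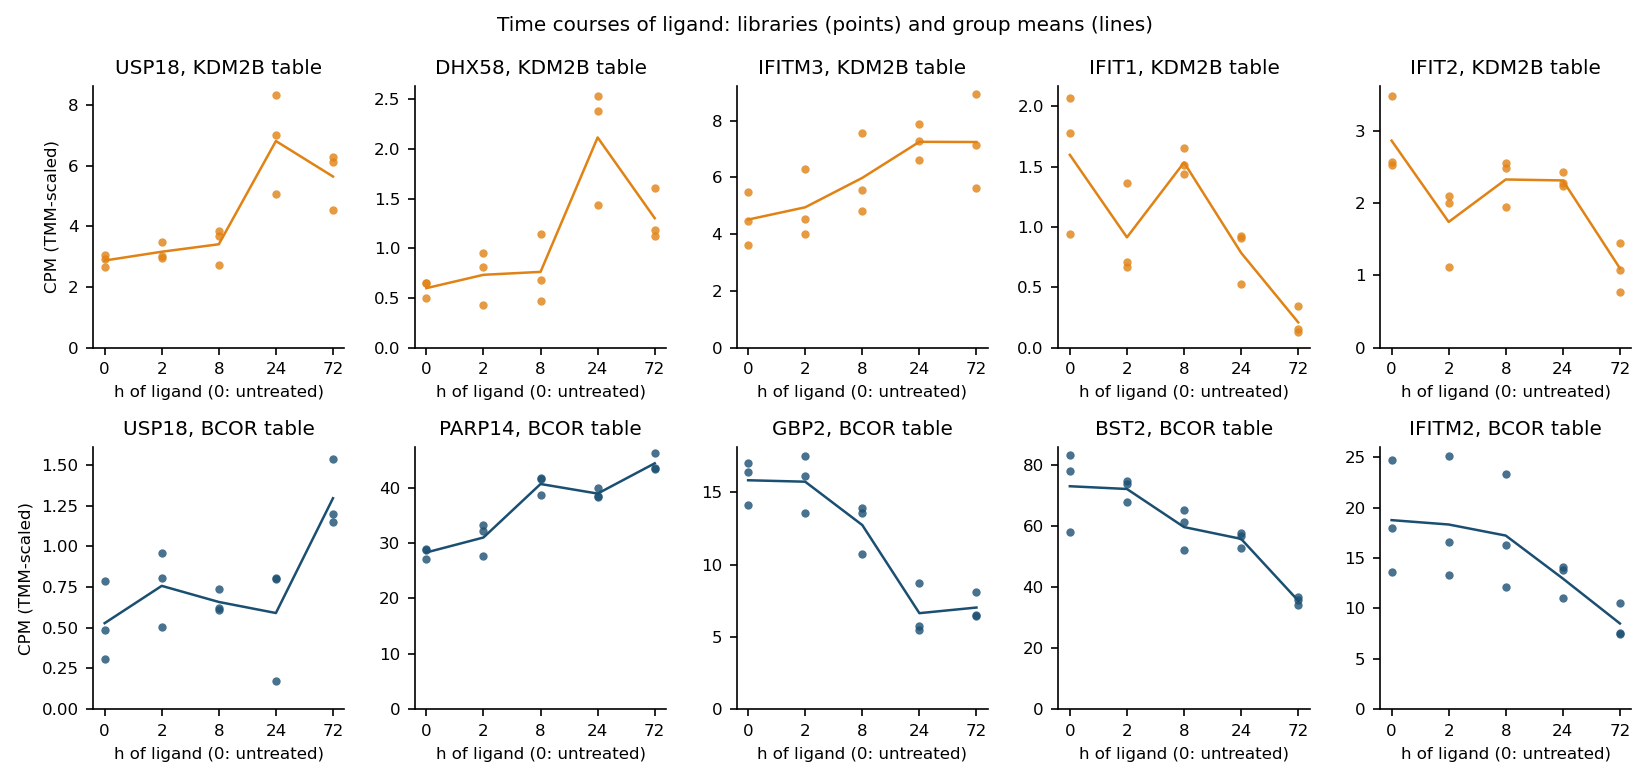
CPM of 5 members in the KDM2B table (top, orange) and 5 in the BCOR table (bottom, blue) against hours of ligand, with points for libraries, lines through group means and 0 for untreated cells. USP18 stands higher at 72 h in both tables, at 5.64 against 2.87 CPM and 1.30 against 0.528, while IFIT1 and IFIT2 are lowest at 72 h in the KDM2B table and GBP2, BST2 and IFITM2 lie lower at 72 h in the BCOR table.

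In the inhibitor table USP18 rose with ligand and with ligand and GSK343 together. Of 21 tested members, 2 were called with ligand (2.55% of all genes), 0 with GSK343 (4.58%) and 3 with both (10.7%). USP18 had 2.87, 2.46 and 3.40 CPM with ligand, 1.22, 1.75 and 1.51 with GSK343 and 2.66, 3.19 and 3.52 with both, against 1.2, 1.79 and 0.991 with DMSO. Its log2 fold changes were 1.13 with ligand and 1.25 with both (adjusted p = 0.0311 and 0.00243 by edgeR). IFI35 was lower with ligand, at 4.76 ± 0.679 against 8.17 ± 0.607 CPM (-0.77). With both, OAS3 had 5.67, 10.3 and 6.93 CPM, against 4.28, 4.64 and 4.30 with DMSO (0.79, adjusted p = 0.032), and BST2 was lower, at 70.1 ± 1.63 against 107 ± 3.64 (-0.60). The call of USP18 with both held under all 18 alternatives, and that of OAS3 was lost under 5 of them. With ligand, USP18 was lost under 8 and IFI35 under 6, and the count was 0 or 1 without any of 8 libraries. With both, BST2 was lost without DMSO library 2 (-0.58), where the count was 1, and with GSK343 it was 1 without GSK343 library 2.

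At the count of 0 with GSK343, 3 members had an unadjusted p under 0.05 and DESeq2 called 0. The interaction of ligand and GSK343 called no member and 0% of all genes, with 1 member at an unadjusted p under 0.05 and 0 by DESeq2. IFIT3 had 31.8 CPM in GSK343 library 1, the shallowest of its table, and 3.51 and 2.93 in the other GSK343 libraries, against 2.49, 3.06 and 3.19 with DMSO, and was not called (log2 fold change 1.85, adjusted p = 0.201). TAP1 rose with ligand, GSK343 and both (1.23, 0.69 and 1.59), and HLA-C with ligand and both (1.68 and 2.17), among 11 tested antigen presentation genes. SOCS3 rose with ligand and both (0.59 and 0.66) among 15 receptors and transducers.

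In mAID cells the ligand called 0 of 23 members (2.31% of all genes), GSK343 0 (0.662%) and both 2 (6.3%). IFI6 had 6.36, 6.50 and 5.75 CPM with both, against 2.64, 2.37 and 3.60 with DMSO (1.07, adjusted p = 0.00152 by edgeR), and IFITM3 20.7, 19.9 and 17, against 11.5, 12 and 11.2 (0.72, adjusted p = 2.83e-05). IFITM3 averaged 14.6 ± 0.899 CPM with ligand alone and 14.8 ± 1.10 with GSK343 alone, without a call. In J2_7 cells the ligand called 0 of 23 (2.39% of all genes), GSK343 0 (2.31%) and both 1 (6.59%), which was USP18 at 0.768, 1.47 and 0.438 CPM, against 0.411, 0.189 and 0.193 with DMSO (1.75, adjusted p = 0.0177). USP18 reached the filter's cutoff of 1.094 CPM in no J2_7 library with DMSO. In mAID cells USP18 averaged 2.47 ± 0.644 CPM with both, 2.30 ± 0.120 with ligand and 1.70 ± 0.301 with DMSO, without a call. The counts at an unadjusted p under 0.05 were 3 and 4 for ligand and GSK343 in mAID and 3 and 5 in J2_7 cells. DESeq2 called 0 in each but for 1 with GSK343 in J2_7, and 0 with both in J2_7.

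Differences of the treatment effects between J2_7 and mAID called no member for ligand (0.00683% of all genes), GSK343 (0.123%) or both (0.437%), with 1, 2 and 2 members at an unadjusted p under 0.05 and 0 by DESeq2. The call of USP18 in J2_7 cells was lost under 4 of 31 alternatives, and the count with both was 0 without J2_7 both library 2, DMSO library 2 or DMSO library 3 and 2 without both library 1 or DMSO library 1. The ligand count in J2_7 was 1 without ligand library 3 or GSK343 library 1, and the GSK343 count was 1 without DMSO library 3, ligand library 3 or both library 1 or 3. SOCS3 rose with ligand in mAID and J2_7 cells (0.72 and 0.79) and with both (0.89 and 0.60), and SOCS1 with both (0.83 and 0.68).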

How the data were processed

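RNA was sequenced from K562 cells in 96 libraries. The authors deposited counts per gene in 4 tables and estimated counts in the J2_7 table, which were rounded to whole numbers. Per the labels' protocols, ribosomal RNA was depleted, and reads were aligned to hg38 with STAR or Strand Avadis NGS. No source used here gives the counting program, strand setting or annotation release. Each table was fitted whole with edgeR 4.0.16 (filterByExpr with a minimum of 10 counts, TMM factors, robust quasi-likelihood F test, Benjamini-Hochberg adjustment over all genes). Calls required both an adjusted p below 0.05 and a log2 fold change beyond 0.585 either way. CPM are counts over the TMM-scaled library size. Standard errors are the fold change over the root of F. Tables were normalized separately, so tests stay within a table. The members and all lists were chosen with earlier results of these data known. Called members were named, with values in every library for those called most often. Alternatives were DESeq2 1.42.0, RLE factors, other filters, no fold threshold, the compared groups alone, a replicate block and each library left out. Added after seeing the data were the line comparisons in treated libraries and, in the J2_7 table, numbered second entries of IRF7, IRF9 and IFI27 added to their gene; these hold 50%, 49.8% and 49.9% of its counts and are not in the printed CPM. The script was tested on simulated data. Counting intervals cover counting error only.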

Additional observations from a re-analysis of the deposited data

Results flagged for a closer look

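Some members were called in 1 table and lay on the other side of the control mean in every library of a like treatment in another table, and the differences were not tested. IFITM3 had a log2 fold change of 0.68 at 72 h in the KDM2B table and -0.46 at 72 h in the BCOR table, where it was not called and its libraries overlapped with the untreated ones. IFI35 was at -0.77 with ligand in the inhibitor table, against 0.07 with ligand in mAID cells, and BST2 at -0.60 with ligand and GSK343 in the inhibitor table, against 0.10 in mAID cells. Both mAID values are close to 0 and were not called.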

How the results depend on the processing

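Counts of called members moved by over 1.5 times in these cases, and the cause was not tested. Without the fold threshold, 3 and 5 were called at 8 and 24 h in the BCOR table, 2, 9 and 13 at 8, 24 and 72 h in the KDM2B table, 3 and 4 for ligand in EV and dLRRS cells, 16 and 10 for dLRRS and dCxxC against EV, 4 and 5 for ligand and for both in the inhibitor table, and 4 for both in mAID cells. DESeq2 called 1 for ligand in the inhibitor table, 1 for GSK343 and 0 for both in J2_7 cells. It called 9 for J2_7 against mAID with both treatments, where the main count was 14. Fitted on the compared groups alone, 0 were called at 2 h in the BCOR table, 1 for ligand in the inhibitor table and 0 for both in J2_7 cells. Without the filter on low counts, 1 was called at 24 h in the BCOR table, and 1, 1 and 2 for ligand, GSK343 and both in J2_7 cells. With a mean of at least 1 CPM, 2 were called for dCxxC against EV.

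With 1 library left out, counts ran from 0 to 1, 1 to 3 and 3 to 6 at 2, 24 and 72 h in the BCOR table, and from 0 to 1, 0 to 1, 3 to 6 and 4 to 9 over the KDM2B times. They ran from 0 to 2 for ligand in dLRRS cells, from 0 to 2, 0 to 1 and 1 to 3 for ligand, GSK343 and both in the inhibitor table, and from 0 to 1, 0 to 1 and 0 to 2 in J2_7 cells. For J2_7 against mAID with GSK343 they ran from 7 to 12. The counts for LF and SF against EV and for J2_7 against mAID, with DMSO, stayed within 1.5 times under every alternative run. No named call changed direction. Replicate numbers came from the labels in the BCOR and J2_7 tables. Deviations of same-numbered libraries correlated at -0.0705 to 0.281 over 30 pairs and at -0.245 to 0.149 over 84 pairs, and 14 of 15 and 1 of 24 libraries correlated best with their own number. With the number as a replicate block, 1, 1, 2 and 7 members were called over the BCOR times and 11 for J2_7 against mAID with DMSO. Genes near the filter, such as ISG20 and DHX58, are limited by depth.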
